A study of Mus musculus with 4 samples.

Results

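The regions described here are 23820 clusters of neighbouring CpGs that were read about equally often in fibroblasts of the cohort with most divisions under doxycycline and in uninduced fibroblasts. A CpG is a cytosine followed by a guanine. Clusters were built on the autosomes from at least 3 CpGs, each at most 100 bp from the next and each covered by at least 10 reads in both libraries. From the 97456 clusters found this way, members were chosen by their measured reads: the reads summed over the cluster in the library of dividing, doxycycline-treated cells (>3Div), divided by those in control, had to lie between 0.8 and its inverse, 5/4. They made up 24.4% of all clusters, while 38068 clusters had a lower ratio and 35568 a higher one. Because the rule used the reads of these 2 libraries, the difference in methylation between them is given as a description, without a test.

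All cells were secondary, inducible mouse embryonic fibroblasts (MEFs) from a hybrid of the strains 129/SvJ and C57/B6. Secondary MEFs carry doxycycline-inducible reprogramming factors, so that adding the drug starts reprogramming throughout a culture. The control was not induced. The 3 other groups received doxycycline for 96 hours and were separated by divisions: 0 divisions (0Div), 1 division (1Div), and a cohort given as >3 in one label and as an average of 3 or more in another (>3Div). The labels give growth medium with 10% serum, doxycycline medium with 15% serum and 2 ug/ul of the drug, and a starvation medium with 0.5% serum, but not which cohort received the last. Each group had 1 library, so no value has a replicate check, and a group cannot be told apart from its culture, medium or library. The assay gives no expression values, so the fibroblast label was not checked against expressed markers.

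Methylation of the cytosine in a CpG is a DNA mark that is copied to the new strand after replication, and it can be lost when that copying fails or when enzymes oxidise it. Most CpGs of somatic cells are methylated, CpG-dense promoters are largely free of the mark, and promoters of many germline genes and 1 parental copy of imprinted control regions are methylated. Reprogramming to pluripotency involves changes of methylation at many sites. Reduced representation bisulfite sequencing (RRBS) cuts DNA with the enzyme MspI, here with fragments of 40 to 220 bp kept, and converts unmethylated cytosines, so that each read reports a CpG as methylated or not.

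Each library listed 1734328 to 1807769 CpGs with 84606824 to 94775128 summed reads. The median per listed CpG was 35 reads in control, 28 in the 0Div, 34 in the 1Div and 24 in the >3Div library. Of all reads at CpGs, 44.4%, 44.6%, 43.5% and 26.0% were methylated, in the same order, so the >3Div library stood apart in its read composition. Over the autosomes it held 1.13 times the reads of control. Whether this composition had a part in the differences below was not tested.

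Sequences could be shown for members at promoters that were located in the data. RefSeq promoter windows of 300 bases (250 before to 50 after the start of a gene, GRCm38.p6) were located among the CpGs of the deposited mm9 tables by the spacing of their CpGs alone, which placed 9341 of 32851 windows, of 8269 genes. Only windows with at least 8 listed CpGs could be placed. The 7 windows printed here are the promoters on which the later account rests: 4 where methylation was lower in the >3Div library (Plagl1, Taf1c, Sycp2l and Gm10863), 1 where it was higher (Gm12992) and 2 germline promoters at high levels in all libraries (Dazl and Asz1). In GRCm38.p6 they lie at chr10:13090582-13090881 (Plagl1, plus strand), chr8:119602597-119602896 (Taf1c, minus), chr13:41114169-41114468 (Sycp2l, plus), chr15:79165816-79166115 (Gm10863, plus), chr4:131919980-131920279 (Gm12992, minus), chr17:50293571-50293870 (Dazl, minus) and chr6:18109012-18109311 (Asz1, minus). Each is written 5′ to 3′ on the strand of its gene, and capitals mark the CpGs that belong to the depth-matched cluster.
Plagl1: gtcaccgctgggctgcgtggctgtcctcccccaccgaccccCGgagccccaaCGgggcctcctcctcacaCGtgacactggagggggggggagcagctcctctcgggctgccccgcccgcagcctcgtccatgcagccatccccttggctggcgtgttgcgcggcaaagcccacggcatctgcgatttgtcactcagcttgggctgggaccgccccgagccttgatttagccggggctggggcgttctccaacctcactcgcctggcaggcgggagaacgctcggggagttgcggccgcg
Taf1c: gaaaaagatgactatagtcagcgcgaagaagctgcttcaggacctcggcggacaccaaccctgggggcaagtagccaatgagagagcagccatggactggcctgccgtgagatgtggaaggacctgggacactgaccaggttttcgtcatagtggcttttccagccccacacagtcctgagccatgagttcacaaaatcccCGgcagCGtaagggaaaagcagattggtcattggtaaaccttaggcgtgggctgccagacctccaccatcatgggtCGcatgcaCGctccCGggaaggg
Sycp2l: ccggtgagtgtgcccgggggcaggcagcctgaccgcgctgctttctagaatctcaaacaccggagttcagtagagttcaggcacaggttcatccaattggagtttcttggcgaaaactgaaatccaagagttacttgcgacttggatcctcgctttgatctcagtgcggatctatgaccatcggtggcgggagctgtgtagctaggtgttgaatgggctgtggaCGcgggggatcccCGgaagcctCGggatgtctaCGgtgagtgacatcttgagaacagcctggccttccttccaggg
Gm10863: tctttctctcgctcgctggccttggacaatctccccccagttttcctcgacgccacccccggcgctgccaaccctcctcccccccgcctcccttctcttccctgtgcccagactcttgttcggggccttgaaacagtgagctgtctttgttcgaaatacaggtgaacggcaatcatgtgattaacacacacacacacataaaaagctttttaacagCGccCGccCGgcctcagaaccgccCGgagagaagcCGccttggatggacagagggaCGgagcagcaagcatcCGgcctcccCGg
Gm12992: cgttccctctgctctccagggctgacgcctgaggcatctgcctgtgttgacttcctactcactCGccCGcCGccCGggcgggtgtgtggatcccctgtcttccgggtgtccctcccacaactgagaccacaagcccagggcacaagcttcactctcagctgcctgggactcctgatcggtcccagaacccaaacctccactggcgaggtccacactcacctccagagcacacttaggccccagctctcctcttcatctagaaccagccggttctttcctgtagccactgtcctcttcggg
Dazl: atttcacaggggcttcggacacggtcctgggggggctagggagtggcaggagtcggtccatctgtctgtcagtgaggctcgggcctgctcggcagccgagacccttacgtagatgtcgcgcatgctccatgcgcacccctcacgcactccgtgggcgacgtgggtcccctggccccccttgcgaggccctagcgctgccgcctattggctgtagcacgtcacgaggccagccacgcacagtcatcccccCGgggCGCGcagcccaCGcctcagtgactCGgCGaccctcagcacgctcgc
Asz1: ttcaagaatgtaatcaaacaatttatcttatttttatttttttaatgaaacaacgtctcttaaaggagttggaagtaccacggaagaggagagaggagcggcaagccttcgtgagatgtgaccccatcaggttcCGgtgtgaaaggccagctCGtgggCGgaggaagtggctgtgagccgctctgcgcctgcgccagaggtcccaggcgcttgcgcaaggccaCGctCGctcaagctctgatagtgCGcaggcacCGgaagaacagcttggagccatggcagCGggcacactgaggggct

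The capitals show how little of a promoter a cluster can cover. At Plagl1 they mark 3 of the 26 CpGs in the window, all near its upstream end, and at Taf1c 5 of 12 CpGs on both sides of the start. The Sycp2l cluster has 4 of its 7 CpGs inside the window, Gm10863 8 of 12, and Asz1 8 of 11. All 4 CpGs of the Gm12992 cluster lie within 12 bp.

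Depth-matched clusters were less methylated in the >3Div library. Their mean methylation level, the percentage of reads that are methylated, was 61.9% in control and 58.9% in the >3Div library, a mean difference of -3.06 percentage points (SD over clusters 6.99). The median difference was -1.72 points, with quartiles of -5.52 and 0.368. The >3Div level was below that of control in 16656 members (69.9%), beside 72.1% of all autosomal clusters. By this description most members differed little and a minority much.

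A difference of at least 10 points was used to mark a cluster as lower or higher. In the >3Div library 2901 members (12.2%) were lower by this rule, beside 14.3% of all autosomal clusters, and 408 members (1.71%) were higher, beside 1.2% of all. Nothing is read from these shares, since the rule for members used the same libraries. At 20 points, 660 members (2.77%) were lower and 27 (0.113%) higher, beside 4.06% and 0.0965% of all.

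The 0Div and 1Div libraries, which the rule did not use, lay close to control. Among the 19915 members with at least 10 reads per CpG in all 4 libraries, the mean level was 64.6% in control, 64.4% in the 0Div, 64.6% in the 1Div and 61.4% in the >3Div library. Against control, 425 of these members (2.13%) were lower and 391 (1.96%) higher by 10 points in the 0Div library, beside 1.61% and 1.49% of all 83344 clusters with this coverage. In the 1Div library 357 (1.79%) were lower and 397 (1.99%) higher, beside 1.28% and 1.6% of all. Differences in these cohorts were about as often up as down, unlike those of the >3Div library.

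The >3Div library was also lower than the other 2 doxycycline libraries. Against the 0Div library, 2548 members (12.8%) were lower and 374 (1.88%) higher, beside 15.1% and 1.31% of all clusters. Against the 1Div library, 2534 (12.7%) were lower and 305 (1.53%) higher, beside 15.8% and 1.12%. These comparisons share the >3Div library, as those above share control, so they are not independent of each other.

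**Figure D1:**
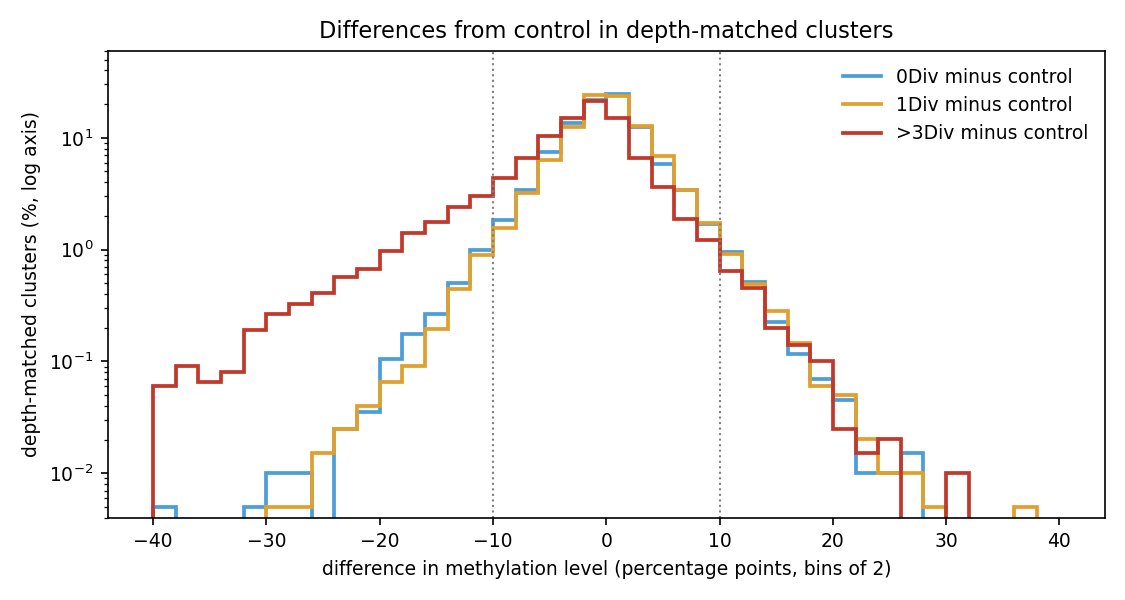
Difference in methylation level from control, in percentage points, against the percentage of the 19915 depth-matched clusters covered in all 4 libraries (log axis, bins of 2 points, drawn from -40 to 40), with 1 line per doxycycline library and dotted lines at -10 and 10 points. The 0Div and 1Div lines lie over each other and are about even on both sides, while the >3Div line extends further to the left.

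Members that were lower in the >3Div library stood near control in both other doxycycline libraries. Over the 2488 of them covered in all 4 libraries, the mean level was 58.5% in control, 56.3% in the 0Div, 56.7% in the 1Div and 41.5% in the >3Div library. Over the 322 members that were higher, it was 56.9%, 61.9%, 62.3% and 70.5%. In each set the 0Div and 1Div means lay between control and the >3Div library. Choosing members by a difference from control alone also sets control apart from the other libraries, so this order is a description.

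The difference varied with the level of methylation. Members were classed by the pooled reads of the 0Div and 1Div libraries. The 6798 members at 20 to 80% had a mean of 57.4% in control and 51.3% in the >3Div library, a difference of -6.16 points, and 2031 of them (29.9%) were lower by 10 points while 223 (3.28%) were higher, beside 36.9% and 3.17% of the 20845 clusters of this class at any ratio. The 9946 members at 80% and over differed by -1.87 points (88.4% and 86.5%), with 380 (3.82%) lower, beside 12.4% of 39416 clusters at any ratio. At 5 to 20% the 1191 members differed by -2.14 points, and under 5% the 1980 members differed by -0.227 points. Partly methylated clusters therefore held most of the members that were lower.

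Members seldom moved from one end of the scale to the other. No such counts over all clusters are given here, so nothing particular to members is read from them. By 20 points, 2.77% of members were lower, beside 8.06% of clusters with a ratio under 0.8 and 0.647% of those over 5/4. Of the 9946 members at 80% and over, 1305 (13.1%) were at 20 to 80% in the >3Div library and 0 were below 20%. Of the 6798 members at 20 to 80%, 646 were at 5 to 20%, 33 were under 5% and 336 were at 80% or over. Among the 14464 members at 50% or more in the pooled reads, 6 were under 10% in the >3Div library. None of the 2442 members under 10% reached 50% there.

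CpG density, counted as listed CpGs within 100 bp on either side, went less with the difference than level did. Among members at 20 to 80%, the mean difference was -6.42 points in the 4320 CpG-poor members (at most 4 neighbours), -5.63 in the 2246 intermediate and -6.42 in the 232 CpG-dense members (at least 12). Without regard to level it was -4.00, -2.56 and -1.31 points in these density classes. The CpG-dense members had a mean of 24.2% in control, against 66.4% in the CpG-poor, so the classes differed in level too. By chromosome, the mean difference ran from -3.46 points on chromosome 12 to -2.52 on chromosome 8, so it was negative on each of the 19 autosomes.

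Relative depth went with the size of the difference. Within the 20 to 80% class, clusters with a read ratio under 0.4 differed by -13.96 points on average, those at 0.4 to 0.6 by -11.4 and those at 0.6 to 0.8 by -8.68. Depth-matched clusters continued this order, with -6.90 points at ratios of 0.8 to 1 and -5.36 at 1 to 5/4. Above the window the values were -3.47, -1.75 and -1.53 points, at ratios of 5/4 to 1.6, 1.6 to 2 and over 2. In this class the mean difference was smaller in each band of higher ratio. In the class at 80% and over the values inside the window were -2.03 and -1.69 points, beside -6.32, -4.52 and -2.77 below it and -0.790, -0.110 and -0.290 above it, so the last band broke the order. The bands also differed in level. In the 20 to 80% class the control mean went from 70.5% at ratios under 0.4 to 48.9% at 1.6 to 2, and was 51.5% over 2. The ratio and the difference both use the reads of these libraries, so they are not independent. The part of depth in the difference was not tested.

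**Figure D2:**
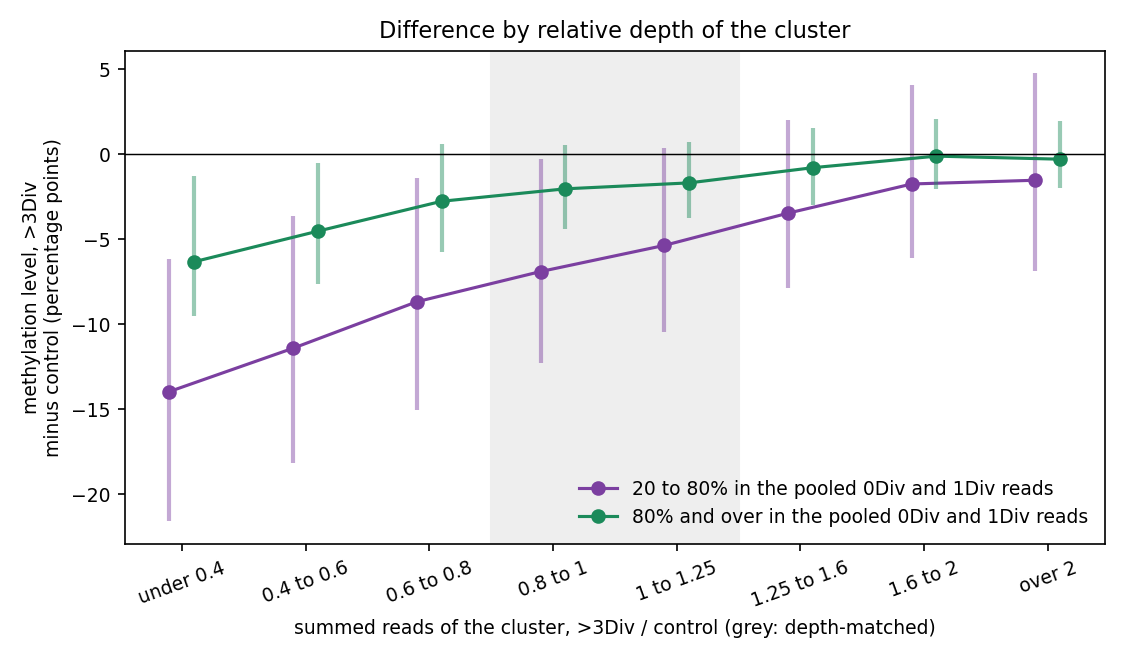
Mean difference in methylation level, >3Div minus control, in percentage points, against the ratio of summed reads, for clusters at 20 to 80% and at 80% and over in the pooled 0Div and 1Div reads; vertical bars span the middle quartiles and the grey band marks depth-matched clusters. The mean difference shrinks from -13.96 to -1.53 points in the first class; in the second it goes from -6.32 to -0.110 and is -0.290 in the last band.

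Clusters on either side of the limits of the rule had like values. The 1128 clusters with a ratio at most 0.02 below 0.8 differed by -4.21 points and the 1119 at most 0.02 above it by -4.02. At the upper limit the 953 clusters just inside differed by -1.93 points and the 868 just outside by -1.92. Neither limit coincided with a step in the difference.

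The reads behind these levels were as follows. Summed over all members, methylated reads went from 5255641 in control to 4993648 in the >3Div library (-4.98%), and unmethylated reads from 5044483 to 5776593 (14.5%). Scaled by the autosomal reads of the libraries, these are ratios of 0.841 and 1.01. In the 2901 members lower by 10 points, methylated reads changed by -30.7% and unmethylated reads by 38.2%, or 0.613 and 1.22 after scaling. Members were chosen for like totals, which ties both kinds of reads to the level, so these changes are no separate result. The tie is not strict within the window of ratios. In the 20 to 80% class, methylated reads changed by -20.8% at ratios of 0.8 to 1 and by 0.370% at 1 to 5/4. The mean level was lower than in control in both bands.

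Clusters outside the window had a different make-up. Where the ratio was under 0.8 and the level lower by 10 points, methylated reads changed by -67.4% and unmethylated reads by -16.3%. Where the ratio was over 5/4, they changed by 5.59% and 103%. Both follow in part from how the ratio sorts clusters. In the 408 members higher by 10 points, methylated reads changed by 29.5% and unmethylated reads by -23.7%.

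Among the 20287 members with at least 100 reads in each library, every CpG was lower in 3158 and higher in 560. Neighbouring CpGs can lie on the same reads, and 69.9% of members were below control, so CpGs of a cluster can be alike without a separate cause. A difference of 10 points over a cluster also favours CpGs of a single direction. No such counts over all clusters are given here, so the counts of this paragraph are a description. In 1838 of the 2901 members lower by 10 points (63.4%), every CpG was lower, and this held for 216 of the 408 higher members (52.9%) with every CpG higher. At 20 points, 541 of 660 lower members (82.0%) had every CpG lower. In clusters of 7 or more CpGs, 126 of 362 lower members (34.8%) and 6 of 39 higher members (15.4%) did so.

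The 14 named clusters are those of the largest difference in which every CpG differed in the same direction, among 20287 members with at least 100 reads in each library. Positions are on mm9. Gene names given for distance are the nearest placed promoter, and other promoters that could not be placed may lie closer.

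The largest decrease was in lower cluster 1 at chr5:130661183-130661252, with 4 CpGs, 13434 bp from the placed promoter of Rabgef1, which encodes an exchange factor of endosomal Rab proteins. Its methylation level was 93.1% in control (217 reads, 95% Wilson interval 88.9 to 95.8), 89.2% in the 0Div, 87.7% in the 1Div and 21.7% (189 reads, 16.4 to 28.1) in the >3Div library. The intervals of the first 3 libraries overlap and lie far above that of the >3Div library. The cluster was picked for its difference between control and the >3Div library, so the gap between their intervals is no separate result.

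Lower cluster 2, at chr1:172974915-172974920 with 3 CpGs, was 60.4%, 58.2% and 64.7% methylated in control, 0Div and 1Div cells and 1.31% in the >3Div library, from 229 reads. Methylated reads were therefore nearly absent from the >3Div library here. Lower cluster 3, at chr17:12934456-12934473, lies 28050 bp from the placed promoter of Igf2r, an imprinted gene for a receptor that binds insulin-like growth factor 2. Its levels were 57.2% in control, 46.2% in the 0Div, 33.6% in the 1Div and 2.27% in the >3Div library. Unlike the first 2, this cluster had a 1Div interval (27.8 to 40.1) below that of control (50.8 to 63.4).

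Lower cluster 6, at chr14:48699396-48699463, had 10 CpGs and 631 to 835 reads per library. All 10 CpGs were lower, with differences from -58.0 to -22.2 points, and the cluster was 53.9%, 49.2%, 48.7% and 5.05% methylated in control, 0Div, 1Div and >3Div cells. It thus combined many CpGs with the same pattern as the smaller clusters. The other 4 named decreases, of 3 CpGs each, had differences from -53.9 to -47.6 points. They lie at chr9:99240677-99240750, chr5:92622367-92622464, chr19:9290884-9290916 and chr7:37313700-37313720.

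Increases were smaller. Higher cluster 1, at chr8:74556594-74556639, was 55.4% methylated in control, 52.4% in the 0Div, 52.3% in the 1Div and 80.8% in the >3Div library, from 124 to 296 reads. Only the >3Div library differed there. Higher cluster 3, at chr12:74038661-74038693, lies 1926 bp from the placed promoter of Six6, a homeobox gene of eye development. It went from 8.33% in control and 7.54% in the 0Div to 13.99% in the 1Div and 28.0% in the >3Div library.

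In higher cluster 4, at chr6:143448791-143448921, control was the low one instead: 47.0% beside 59.4%, 64.1% and 66.3% in the doxycycline libraries. Its control interval (40.7 to 53.4) overlaps that of the 0Div library (52.2 to 66.1). Higher clusters 2, 5 and 6, at chr11:117234596-117234724, chr12:112684442-112684509 and chr1:185371038-185371097, were higher by 22.6, 19.2 and 18.8 points. In each of them the >3Div level was the highest of the 4 libraries.

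**Figure D3:**
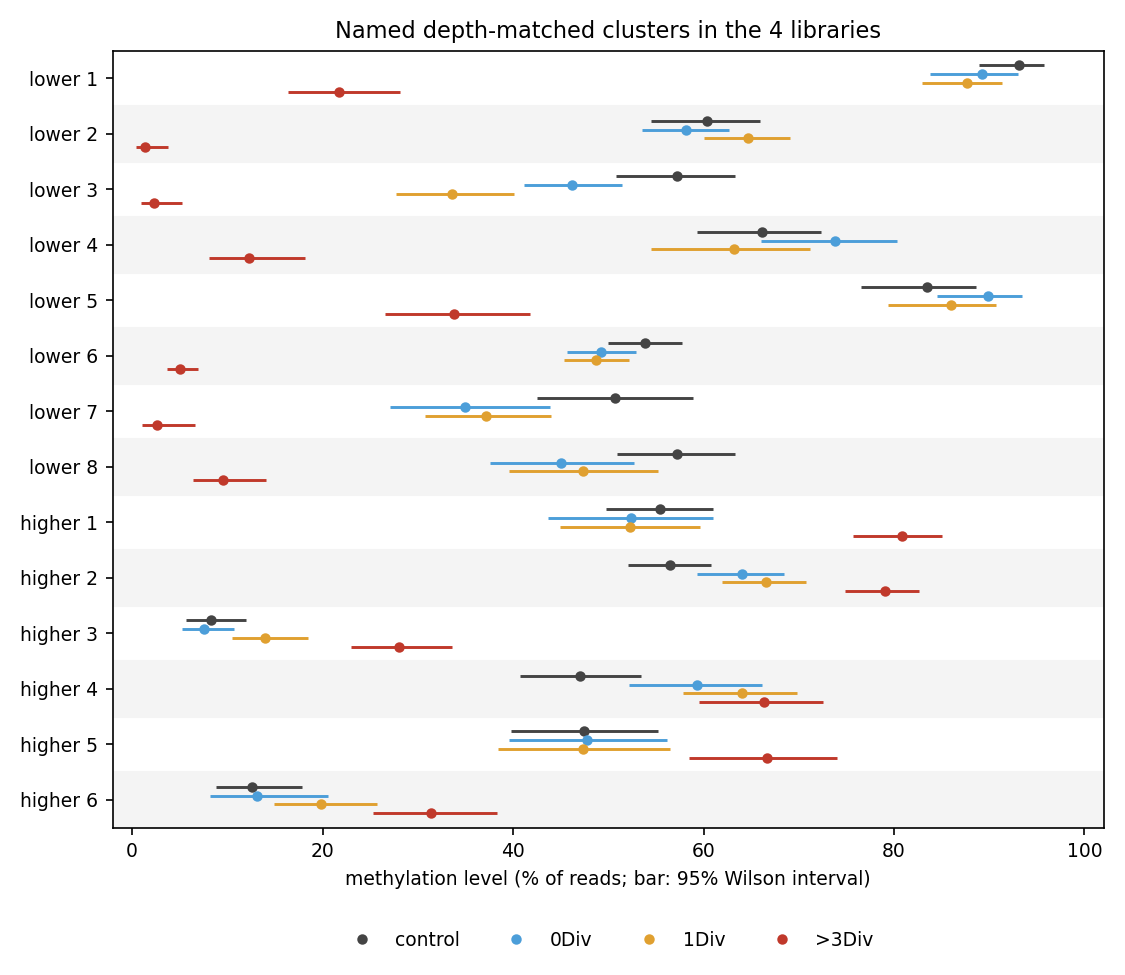
Methylation level in percent, with 95% Wilson intervals as bars, of the 8 named lower and 6 named higher clusters (rows) in the 4 libraries (colours). In every lower cluster the >3Div point is the lowest, reaching 1.31% in lower cluster 2, and in higher cluster 4 the points of the 3 doxycycline libraries lie above that of control.

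The deepest members of each level class have narrow intervals. These cover counting error at most and can be too narrow, since a read counts once at each CpG it spans. Their summed reads lie far above the median of 319 reads over all members in control, so they are not typical members. Whether reads at such depth come from a single place in the genome was not tested, here or for the clusters of the next paragraph. Under 5%, the deepest, of 23 CpGs at chr16:11144143-11144274, was 3.48% methylated in control (39321 reads, 3.30 to 3.66), 3.82% in the 0Div, 3.60% in the 1Div and 2.31% in the >3Div library (48058 reads, 2.18 to 2.45). The >3Div interval lies below the other 3. The third of this class, 66 CpGs at the promoter of Ctcf, the gene of an architectural DNA-binding protein, was 0.446% methylated in control and 0.395% in the >3Div library, from 4487 and 5571 reads. At 20 to 80%, the deepest was a cluster of 27 CpGs at the promoter of the vomeronasal receptor gene Vmn2r29, with 72.0%, 70.0%, 70.8% and 60.8% in control, 0Div, 1Div and >3Div cells and 24 of 27 CpGs lower. At 80% and over, a cluster at chr1:110312839-110312925 had 96.4% in control and 91.6% in the >3Div library, from 7124 and 7102 reads. Equal weight per CpG changed that difference from -4.83 to -1.01 points.

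A cluster of 46 CpGs at chr17:39985226-39985654 was far deeper than most members, with 226367 reads in control. It was 4.23% methylated in control, 5.67% in the 0Div, 5.04% in the 1Div and 1.22% in the >3Div library, and 42 of its 46 CpGs were lower. Such a low level leaves little room for a difference in points. At chr6:3151379-3151442, a cluster of 8 CpGs with 50196 reads in control went from 5.53% to 1.23% with all 8 CpGs lower.

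Neighbouring members formed 952 runs of at least 3 clusters with gaps of at most 5000 bp, which together held 3783 members. All members were lower in 347 runs and higher in 18. All were lower by 10 points in 6 runs, and in 0 runs were all higher by that much. No such counts for runs of all clusters are given here, and 69.9% of single members were below control. The counts of runs are therefore a description, and no regional effect is read from them. The runs of largest decrease lie on chromosome 2 near Gnas, an imprinted gene for a stimulatory G protein subunit.

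The first, chr2:174123520-174125829, held 3 clusters with 27 CpGs, 13650 bp from a placed promoter window of Gnas, and had a mean level of 56.5% in control, 53.6% in the 0Div, 58.7% in the 1Div and 28.1% in the >3Div library. The second, chr2:174110190-174110947, held 32 CpGs in 3 clusters, 320 bp from a Gnas window, with 39.4%, 46.1%, 43.5% and 13.9%. In both runs the >3Div library alone was low. A run at chr17:35042305-35043774 was at 73.1% in control and 52.2% in the >3Div library. Its clusters ranged from -49.1 to 0.741 points and so did not all change alike.

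The largest mean increases were in a run of 4 clusters at chr16:17802952-17807060, with 47.8% in control and 56.8% in the >3Div library, and in a run of 4 clusters that includes the Six6 promoter, chr12:74038661-74041650. The mean level of the latter went from 6.04% in control to 7.17% in the 0Div, 9.40% in the 1Div and 14.3% in the >3Div library. Its 4 clusters differed from control by -1.89 to 19.7 points.

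Promoters formed a small and mostly unmethylated group: 903 members lay at a placed promoter, with a mean of 7.09% in control and 6.23% in the >3Div library, a difference of -0.863 points. Of these, 24 (2.66%) were lower by 10 points and 6 (0.664%) higher, beside 77 (0.904%) and 9 (0.106%) of the 8513 clusters of any ratio at a placed promoter. At 20 to 80%, 61 promoter members differed by -5.77 points and the 6737 others by -6.16. At 5 to 20%, 60 promoter members differed by -1.48 points and the 1131 others by -2.17. At 80% and over, 15 promoter members differed by -0.934 points and none by 10 or more, while the 9931 others differed by -1.87. No test was made of these differences.

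The promoter with the largest decrease was shared by Plagl1, an imprinted gene for a zinc finger transcription factor, and Hymai, an imprinted non-coding RNA. Its cluster at chr10:12810429-12810458 (mm9) was 59.9% methylated in control (242 reads), 59.1% in the 0Div (438), 52.1% in the 1Div (326) and 29.3% in the >3Div library (283). All 3 CpGs were lower, with differences from -32.7 to -26.3 points. Of the 20 imprinted genes listed, 5 had a placed promoter, and this was the 1 depth-matched cluster among the 7 clusters there.

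Sycp2l, a gene related to a synaptonemal complex gene of meiosis, had a cluster of 7 CpGs at chr13:41209762-41209896 with 43.0% in control, 33.8% in the 0Div, 40.6% in the 1Div and 14.7% in the >3Div library. All 7 CpGs were lower. Taf1c, which encodes a subunit of the RNA polymerase I initiation factor SL1, was at 67.6%, 67.9%, 66.8% and 37.3%. With equal weight for each of its 5 CpGs, the Taf1c difference was -20.6 in place of -30.3 points, so its size depends on how the CpGs are weighted.

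At Gm10863 all 12 CpGs were lower, and the level went from 69.2% in control, 59.1% in the 0Div and 62.6% in the 1Div to 52.1% in the >3Div library. D130017N08Rik was lower at 8 of 9 CpGs, with 38.1%, 29.7%, 26.8% and 11.2%. In both, control was above the 0Div and 1Div libraries as well. The promoter cluster of Cdv3 had 66 CpGs and 7302 to 8261 reads per library and was at 28.6%, 32.1%, 32.7% and 10.6%. Its difference of -18.0 points was -9.58 with equal weight per CpG. The Gfm2, Rnf26, Gm33022 and Tom1 differences likewise became smaller, from -14.5, -14.8, -13.9 and -12.7 points to -3.45, -7.45, -8.46 and -7.00.

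Of the promoters with higher levels, Gm12992 had all 4 CpGs higher, by 10.6 to 25.7 points, with 52.1% in control, 62.0% in the 0Div, 65.9% in the 1Div and 68.7% in the >3Div library. At Gm41814 2 of 18 CpGs were lower, and the levels were 51.2%, 61.5%, 59.8% and 62.7%. In both of these control was low and the doxycycline libraries were alike. Marveld2, the gene of the tight junction protein tricellulin, was at 39.6%, 46.1%, 43.9% and 52.4% over 36 CpGs. Its difference of 12.8 points was 6.74 with equal weight per CpG, and those of 4930412O13Rik and Tmem59l shrank from 13.0 and 12.9 to 0.248 and 1.76 points.

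Depth-matched promoter clusters of the listed germline genes were mostly highly methylated in all 4 libraries, with Ddx4 at an intermediate level. The list was written after promoter values had been seen, so these levels are a description. Sycp2l, given above, was not in the list. Of 20 genes listed, 13 had a placed promoter and 8 had depth-matched clusters there, 9 of the 12 clusters of any ratio. None of the 9 was lower or higher by 10 points, a count too small to set against the 12.2% of all members that were lower. In members at 80% and over, the class of all but Ddx4, the share lower was 3.82%. The median difference of the 9 was -1.37 points, beside -1.72 for all members and -1.68 for those at 80% and over. Dazl, which encodes an RNA-binding protein of germ cells, was at 95.9% in control, 91.8% in the 0Div, 94.7% in the 1Div and 92.7% in the >3Div library. Its difference of -3.21 points was -9.57 with equal weight per CpG, with a single CpG at -52.3 points.

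Asz1, a gene of the piRNA pathway, held 93.0%, 93.3%, 93.2% and 93.1%, and its 4 intervals overlap. Its difference of 0.0749 points was -1.31 with equal weight per CpG, with single CpGs from -20.4 to 9.38 points. Ddx4, the germ cell helicase gene, was at 68.4%, 76.7%, 68.7% and 67.0%, so the 0Div library was the one that differed. Tex101, a germ cell surface protein gene, was at 97.7% in control (95.6 to 98.9) and 91.5% in the >3Div library (87.8 to 94.2), with 91.2% in the 1Div library, so its control and >3Div intervals do not overlap. Adad2 had the largest increase in the list, from 84.4% to 92.3%, on 90 and 78 reads with overlapping intervals.

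**Figure D4:**
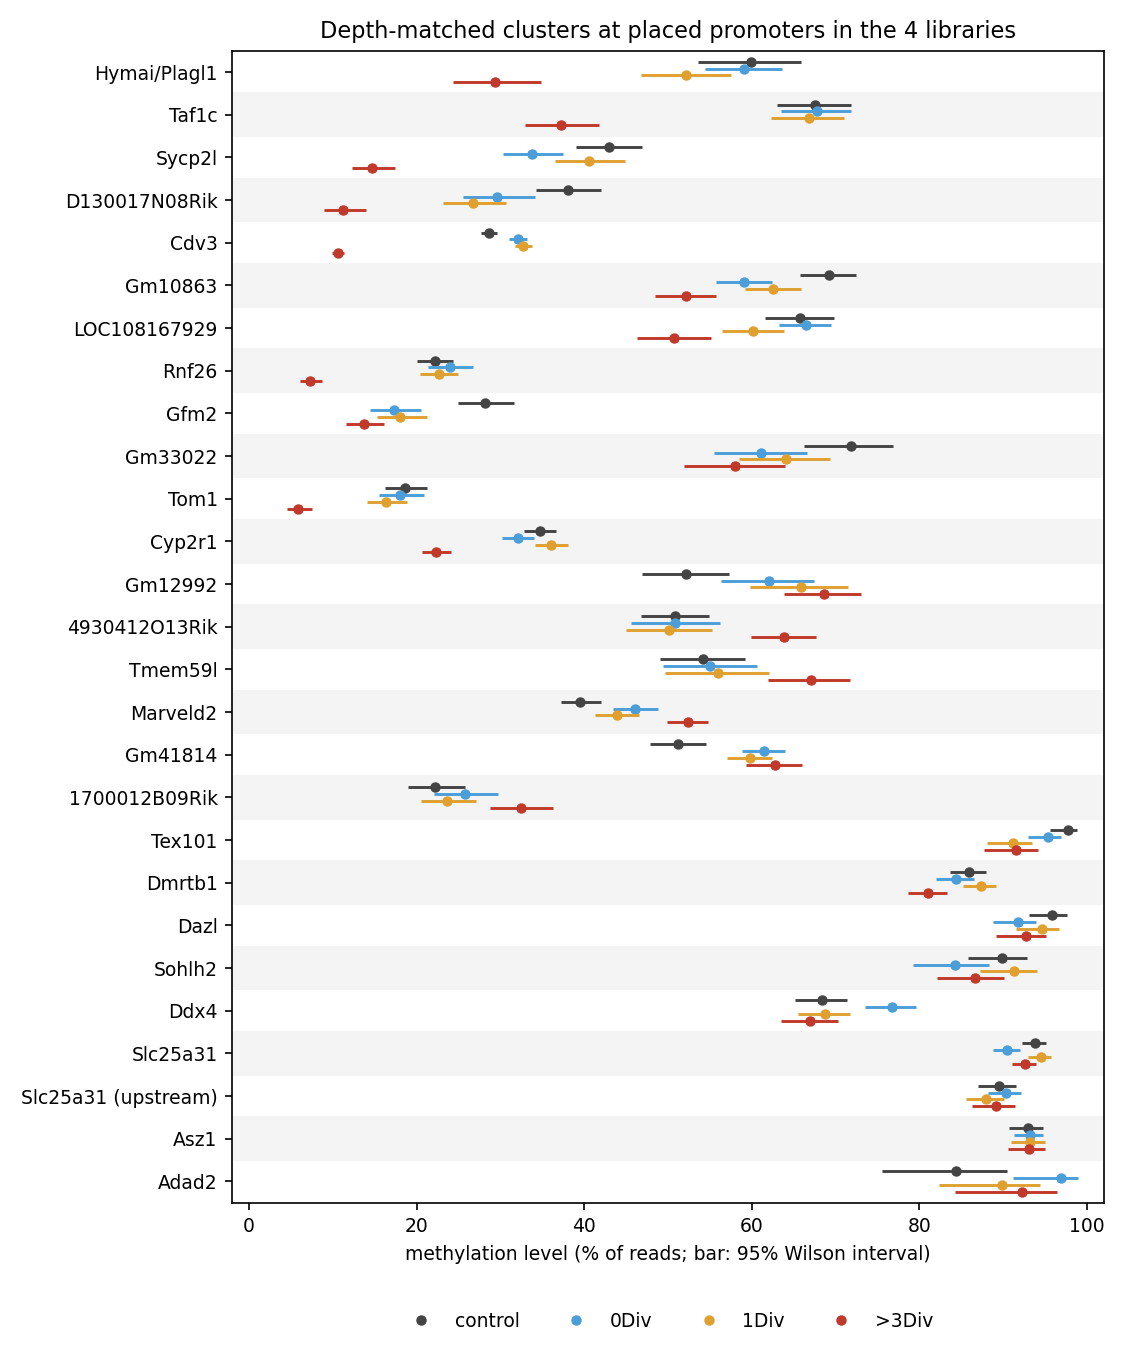
Methylation level in percent, with 95% Wilson intervals as bars, of the 18 named promoter clusters and the 9 germline promoter clusters (rows) in the 4 libraries (colours). The >3Div points lie to the left in the upper 12 rows and to the right in the next 6, while the 4 points of most germline promoters lie together at the right, those of Asz1 between 93.0% and 93.3%.

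Few genes of the other lists had a depth-matched promoter cluster. Among 20 pluripotency genes, 3 were placed and 2 had a member: Sox2, a reprogramming factor gene, at 1.36% in control and 1.04% in the >3Div library, and Tfcp2l1 at 0.587% and 0.560%. Neither promoter had methylation to lose at this depth. Among 16 mesenchymal genes, the collagen gene Col1a2 had a member with 5.95% in control and 3.00% in the >3Div library. Of 14 epithelial genes, Krt18 was at 13.3% and 9.09% from 30 and 33 reads, with overlapping intervals, and Marveld2 is given above.

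The comparison of the 1Div with the 0Div library used reads that played no part in choosing members. With Fisher's exact test (two-sided), Benjamini-Hochberg adjustment and a difference of at least 10 points, 140 of 19915 members (0.703%) were called, 52 lower and 88 higher in the 1Div library, beside 0.641% of the 83344 clusters tested. At an unadjusted p under 0.05, 2457 members (12.3%) passed, beside 14% of all. The mean difference was 0.230 points (SD over clusters 4.46). The share of members called was thus close to that of all clusters, and the test compares these 2 libraries, not the cohorts. It takes every count as independent, although a read that spans several CpGs of a cluster enters once at each. The p-values here and in the next paragraph can therefore be too small. The calls and the share under 0.05 are a description.

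The called member with the largest increase, of 3 CpGs at chr11:102707334-102707375, was at 33.7% in the 0Div (403 reads) and 78.3% in the 1Div library (221 reads; adjusted p = 4.66e-23, Fisher's exact test), beside 65.6% in control and 60.1% in the >3Div library. There the 0Div library was the low one. At chr15:101309796-101309829, a cluster of 4 CpGs was at 40.1% in control, 52.0% in the 0Div, 25.8% in the 1Div and 24.6% in the >3Div library (1Div against 0Div, adjusted p = 4.61e-11, Fisher's exact test). The 1Div and >3Div libraries were alike in this cluster and below the other 2.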

How the data were processed

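For each library the authors deposited a table of CpG positions with methylated and unmethylated read counts, without a header. The build was mm9, per the submitters' processing notes; aligner, methylation caller, conversion check and duplicate handling were among the steps not given in the sources used here. The listed positions count from 0 (213 placed windows began exactly 1 below their RefSeq start and 0 at it), so printed positions are 1 higher than listed. Levels are methylated over all reads, summed over a cluster. A read that spans several CpGs of a cluster counts once at each, so read numbers of a cluster are not numbers of molecules. Wilson intervals (95%) and the Fisher test treat these counts as independent, and PCR reads without molecular identifiers are not independent molecules either. The p-values of the test can therefore be too small. The intervals cover counting error at most and can be too narrow, so overlap or its absence is a description.

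Analysis used Python 3.11.15 with numpy 2.4.6, pandas 2.3.3, scipy 1.17.1 and statsmodels 0.14.6. The Fisher test was tested on simulated data. Named clusters were the 8 largest decreases and 6 largest increases among members with 100 reads in all 4 libraries and every CpG differing the same way, plus the 3 deepest per level class. Named promoters were the 12 largest decreases and 6 largest increases with 100 reads in all 4 libraries and 3 CpGs in the window. Clusters named for the 1Div against 0Div test were picked after their values were seen. Promoter placement was added after the files were seen, because no mm9 annotation was at hand; a window was placed where all listed CpGs fell on CpGs of its sequence at a single place on its chromosome. Of 9343 windows so placed, 9341 kept the order of their neighbours, and 69 reversed windows were placed by the same rule. Elsewhere exon, intron and gene annotation was not used here. The members and gene lists were chosen with earlier results of these data known, and the 5 gene lists, with Marveld2, Dmrtb1, Adad2 and Tex101, after promoter values had been seen. Alternatives varied the read minimum, cluster gap and size, the read ratio, the weighting of CpGs and the threshold.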

Additional observations from a re-analysis of the deposited data

How the results depend on the processing

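No alternative changed the direction of the mean difference, which ranged from -2.28 to -4.16 points. A single library per group limits every value, and no replicate could be left out. The mean difference, the percentage lower by 10 points and the percentage higher by 10 points were -3.28, 13.5 and 1.96 with a minimum of 5 reads per CpG, and -3.01, 11.1 and 1.38 with 20 reads. With cluster gaps of 50 bp they were -2.28, 8.86 and 1.63, with gaps of 200 bp -4.16, 16.8 and 1.52, and with at least 5 CpGs -2.48, 7.30 and 0.765. With the read ratio scaled by total reads they were -2.40, 9.47 and 1.57, with the ratio kept at every CpG -3.38, 15.3 and 2.03, and with depth matched to all 3 other libraries -3.49, 12.2 and 1.12. With at least 100 reads in both libraries the mean was -3.18 and the percentage higher 1.27, and with equal weight per CpG the mean was -3.12 and the percentage lower 13.0. At 20 points 2.77% were lower and 0.113% higher. A further requirement of an adjusted p had been planned and was left out, because that test uses the counts that chose the members. The share of clusters that were depth-matched was 23.5% with 5 reads, 25.7% with 20 reads, 22.8% with 50 bp, 25.7% with 200 bp, 11.7% with a window of ratios narrowed to about 0.9 and its inverse and 26.2% with scaled ratios. At 20 points, 19 members were called between the 1Div and 0Div libraries in place of 140. The cause of these shifts was not tested beyond what each setting changes by construction.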

Other observations

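The rule took autosomes only. On the X chromosome 1398 of 4660 clusters had a read ratio between 0.8 and 5/4, and as a mean 71.5% of their reads were methylated in control, 71.8% in the 0Div, 72.0% in the 1Div and 68.0% in the >3Div library. Of these, 147 (10.5%) were lower by 10 points in the >3Div library than in control and 11 (0.787%) were higher, beside 663 (14.2%) and 39 (0.837%) of all X clusters. CpG-dense X clusters stood at intermediate levels: the 140 depth-matched ones had a mean of 43.2% in control and 40.0% in the >3Div library, and 120 of them were below control.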
